A study of Mus musculus with 9 samples.

Results

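The miR-17-92 cluster and its paralogue miR-106b-25 are short runs of miRNA hairpins that are each cut from a shared transcript. Their 9 mature guide strands were chosen by name, as the probe target names equal to the members, and made up 9 of the 1881 mouse miRNAs on the array. The miR-17-92 cluster gave 6 of them (mmu-miR-17-5p, mmu-miR-18a-5p, mmu-miR-19a-3p, mmu-miR-20a-5p, mmu-miR-19b-3p and mmu-miR-92a-3p) and the miR-106b-25 cluster gave 3 (mmu-miR-106b-5p, mmu-miR-93-5p and mmu-miR-25-3p), named below without the species prefix. The rule used no measured value.

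Liver miRNA was measured on 1-colour Agilent arrays in 3 groups of male C57BL/6J mice, an inbred strain, all 20 weeks old and all on their diet for 17 weeks from 3 weeks of age. The metformin group was fed a diet that drew 45% of energy from fat and was given metformin, the common glucose-lowering drug of type 2 diabetes, at 3 mg/kg per day by stomach tube for the last 5 weeks. The high fat diet group ate the same diet and received saline by stomach tube over those weeks. The control group ate chow; the sources used here do not say whether it was given a vehicle. Each group had 3 arrays, each on RNA from a pool of livers of 4 mice, so the spread between arrays and every p-value below apply to pools and not to mice.

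A miRNA guides an Argonaute protein to messenger RNAs that pair with its seed, bases 2 to 8 from the 5′ end, and lowers their output. The miR-17-92 cluster is known as an oncogenic polycistron that Myc and E2F factors induce in dividing cells, and miR-106b-25 lies in an intron of Mcm7, which encodes a subunit of the replicative helicase. Targets described for these clusters include the cell cycle inhibitor Cdkn1a and the pro-apoptotic protein Bcl2l11.

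The mature sequences are shown because the array separates near-identical miRNAs by their probes and because the comparisons below run by seed as well as by cluster. All 9 of 9 members were matched to RefSeq entries on GRCm38.p6. The miR-17-92 hairpins lie on the plus strand at chr14:115043671-115044506, in 836 bases that hold 6 hairpins. The miR-106b-25 hairpins lie on the minus strand at chr5:138165321-138165818, in 498 bases that hold 3 hairpins, within Mcm7. Each sequence is written 5′ to 3′ with its seed in capitals.
miR-17-5p: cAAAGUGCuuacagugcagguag
miR-20a-5p: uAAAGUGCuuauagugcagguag
miR-106b-5p: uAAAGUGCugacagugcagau
miR-93-5p: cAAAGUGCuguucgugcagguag
miR-18a-5p: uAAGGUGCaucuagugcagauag
miR-19a-3p: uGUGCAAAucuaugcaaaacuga
miR-19b-3p: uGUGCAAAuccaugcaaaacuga
miR-92a-3p: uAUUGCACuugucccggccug
miR-25-3p: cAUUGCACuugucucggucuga

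The 9 members carry 4 distinct seeds, and 2 of these seeds occur in both clusters. The seed AAAGUGC is shared by miR-17-5p and miR-20a-5p of miR-17-92 and by miR-106b-5p and miR-93-5p of miR-106b-25. The seed AUUGCAC is shared by miR-92a-3p of miR-17-92 and miR-25-3p of miR-106b-25. The seeds GUGCAAA of miR-19a-3p and miR-19b-3p and AAGGUGC of miR-18a-5p occur in miR-17-92 and not in miR-106b-25.

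Outside the seed the members of a family differ by few bases, counted here from 1 at the 5′ end. From miR-17-5p to miR-20a-5p the changes are C1U and C12U. From miR-19a-3p to miR-19b-3p the only change is U11C. From miR-92a-3p to miR-25-3p, over the 21 shared positions, they are U1C, C14U and C18U. Mature miR-19b-3p and miR-92a-3p are each encoded at 2 loci, on chromosome 14 and in the paralogous cluster on chromosome X, so their signal cannot be divided between these loci. How far a probe for one family member also captures another was not tested, since the files hold no probe sequences.

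Array quality differed with the groups. Bright probes lacked signal in strips along the array edges on 1 of 3 metformin arrays, on 2 of 3 from the high fat diet group and on 3 of 3 control arrays. Values below leave these strips out, which removed 0% to 31.1% of the spots on metformin arrays, 0% to 53.6% on high fat diet arrays and 41.1% to 43.8% on control arrays. A level is the log2 of a miRNA's background-subtracted intensity relative to the 75th percentile, taken on each array over 187 probes that were detected on all 9. That percentile lay between 231 and 252 on metformin arrays, 221 and 323 on high fat diet arrays and 193 and 225 on control arrays, with 0 saturated spots. Array profiles correlated at 0.987 to 0.998 across miRNAs within groups and at 0.977 to 0.995 between groups. A miRNA counted as detected on an array where over 50% of the spots of the probe used for it lay well above background, and 143 miRNAs detected on all 3 arrays of some group were tested.

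Of the 9 members, 7 were detected and tested and 2 were not. miR-17-5p, which represses E2F1 in human cells and gives the cluster its name, was not well above background on any array, with 0 of 183 spots of its 2 probes above it. Its intensity after background subtraction lay between -2.84 and 0.0405. miR-18a-5p, known to repress Ctgf, was likewise detected on 0 of 9 arrays, with 4 of 193 spots above background. Neither result gives a difference between groups. Whether the probes of these 2 miRNAs respond to their targets was not tested, so their lack of signal does not bound the level.

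The 4 other miR-17-92 members were detected. miR-20a-5p had 194 of 194 spots above background, although it differs from miR-17-5p at 2 positions and comes from the same transcript. miR-19b-3p had 186 of 187 and miR-92a-3p 181 of 183. miR-19a-3p, with intensities between 11.0 and 22.2, was detected on 8 of 9 arrays. The exception was control replicate 1, where 33.3% of the spots of its better probe lay above background.

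All 3 miR-106b-25 members were detected on all 9 arrays. miR-106b-5p had 187 of 197 spots above background over both its probes. For miR-93-5p and miR-25-3p the counts were 97 of 191 and 99 of 182, because 1 of the 2 probes of each was detected on 0 arrays. The intensity of the probe used was 34.9 to 72.8 for miR-106b-5p, 33.9 to 54.5 for miR-93-5p and 49.0 to 97.5 for miR-25-3p. Levels are not compared between miRNAs here, since the efficiency of labelling and of probe binding can differ from one miRNA to another.

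**Figure D1:**
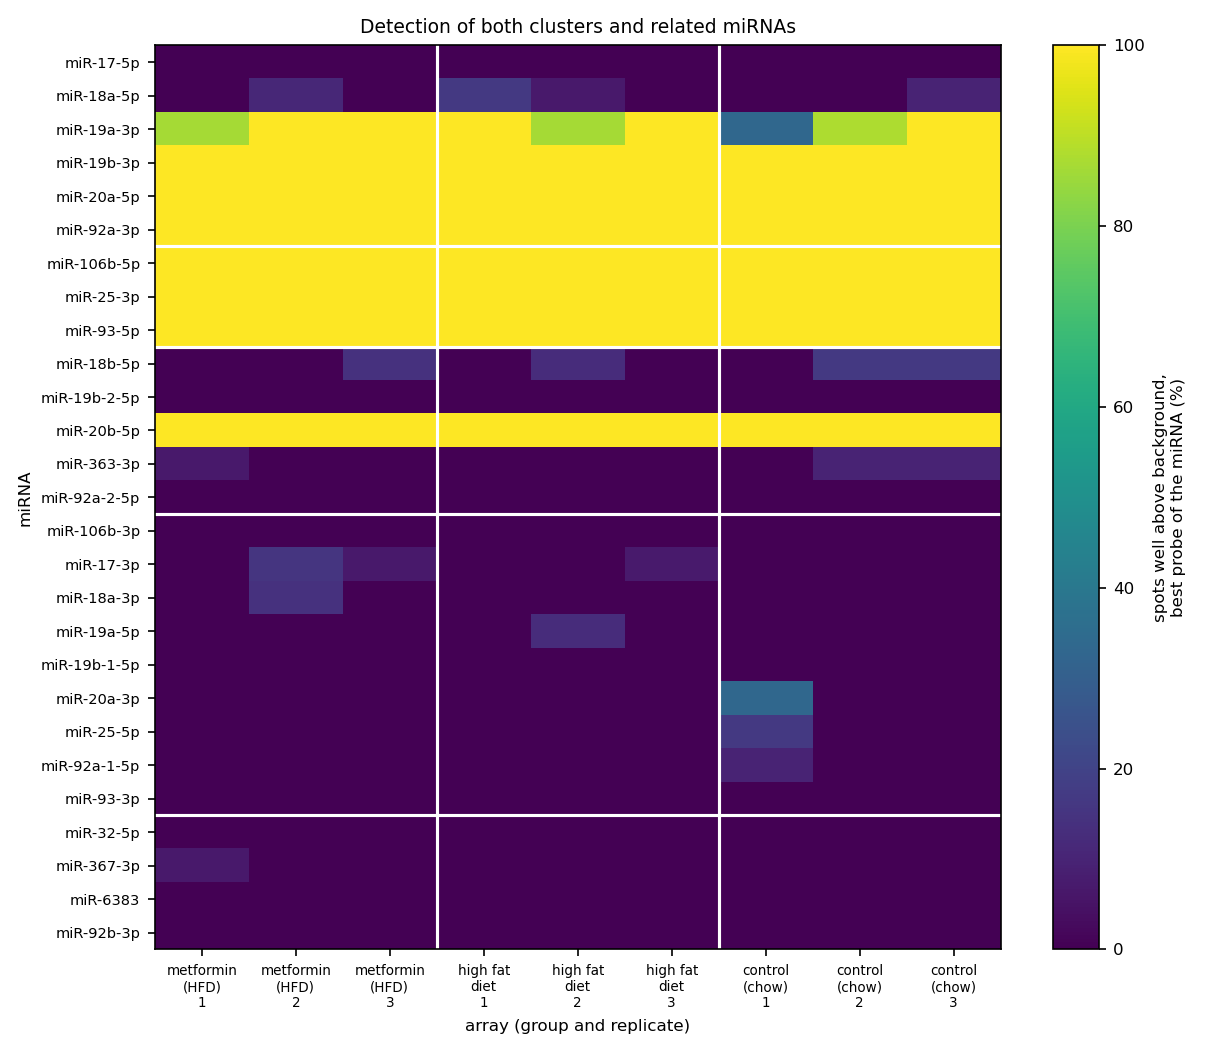
Share of spots well above background (colour, in percent) for the better probe of each miRNA (rows) on every array (columns: 3 metformin, 3 high fat diet and 3 control arrays); white lines separate, from the top, miR-17-92, miR-106b-25, the X-linked paralogues, the passenger arms and other miRNAs with a member seed. The 7 detected members and miR-20b-5p stand out on nearly all arrays, with miR-19a-3p at 33.3% on control replicate 1. No other row passes 50% on any array; the passenger arm miR-20a-3p reaches 33.3% on control replicate 1 and the rest reach at most 16.7%.

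The other strands cut from the same hairpins, called passenger arms, were below the detection limit throughout. Of 9 passenger arms on the array, 0 were detected on any array, and miR-17-3p had the most spots above background, 4 of 209. Of the X-linked paralogue cluster, 5 of 6 strands in the list had probes under those names, and 1 was detected. That strand was miR-20b-5p, which shares the seed AAAGUGC and differs from miR-20a-5p by U1C and U10C. It is shown for comparison with the sequence of miR-20a-5p above.
miR-20b-5p: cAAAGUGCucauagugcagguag
It lies on the minus strand at chrX:52742159-52742181 and had 181 of 196 spots above background. The remaining miRNAs with a member seed, miR-32-5p, miR-92b-3p, miR-367-3p and miR-6383, were detected on 0 arrays. Thus, of 7 mouse miRNAs in RefSeq with the seed AAAGUGC, 6 were on the array and 4 were detected: miR-20a-5p, miR-106b-5p, miR-93-5p and miR-20b-5p.

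The comparison of high fat diet with control livers asks how the diet relates to these miRNAs. Of the 7 tested members 0 passed the threshold, against 14% of all 143 miRNAs tested (limma, Benjamini-Hochberg adjusted p under 0.05). Likewise 0 of 7 reached an unadjusted p under 0.05, against 35.7% of all miRNAs. The members' differences had a median of 0.03 on the log2 scale, and the median over all 143 was also 0.03. Across the 7 members the 95% intervals spanned -0.30 to 0.51, that is from 1.23-fold lower to 1.42-fold higher in high fat diet livers.

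Among the AAAGUGC members, which repress Cdkn1a and E2F1 in human cells, the clusters lay on opposite sides of 0. miR-20a-5p had log2 levels of -0.73, -0.78 and -0.80 on high fat diet arrays, against -0.67, -0.62 and -0.70 on the control arrays. All high fat diet arrays lay below all control arrays, by a margin smaller than the range of either group. The difference was -0.11 (SE 0.08) with an adjusted p of 0.347 in limma.

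miR-106b-5p had levels of -1.89, -1.94 and -2.18 on high fat diet arrays, against -2.46, -2.16 and -2.07 on the control arrays. The groups overlapped, with high fat diet replicate 3 inside the control range and control replicate 1 the lowest of the 6. Its difference of 0.23 (SE 0.13; adjusted p = 0.214, limma) was the largest among the members in this comparison. miR-93-5p lay between -2.57 and -2.38 on high fat diet arrays and between -2.51 and -2.45 on control arrays, a difference of 0.02 (SE 0.11).

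The AUUGCAC pair, known for repressing Bcl2l11, was divided in the same way. miR-92a-3p had levels of -0.28, -0.24 and -0.13 on high fat diet arrays, against -0.03, -0.10 and -0.19 on the control arrays. High fat diet replicate 3 and control replicate 3 crossed over, and the difference was -0.11 (SE 0.08; adjusted p = 0.360, limma). miR-25-3p had levels of -1.82, -1.80 and -1.73 on high fat diet arrays, against -1.98, -1.83 and -1.86 on the control arrays. Every high fat diet array was higher than every control array, by a narrow margin between high fat diet replicate 1 and control replicate 2. The difference was 0.10 (SE 0.09; adjusted p = 0.397, limma).

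The miR-19 pair, known as the main oncogenic part of miR-17-92 in mouse lymphoma, had differences near 0. miR-19a-3p lay at -3.75, -3.82 and -3.87 on high fat diet arrays, against -4.13, -3.86 and -3.62 on the control arrays, so the control arrays reached both further down and further up. miR-19b-3p lay at 0.16, 0.10 and 0.11 on high fat diet arrays, against -0.14, 0.20 and 0.23 on the control arrays. The differences were 0.06 (SE 0.13) and 0.03 (SE 0.12), and in both miRNAs control replicate 1 was the lowest control array. Groups did not overlap for 2 of the 7 members, against 37.1% of all miRNAs tested: miR-20a-5p lay lower (15.4% of all miRNAs) and miR-25-3p higher (21.7%) in high fat diet livers.

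**Figure D2:**
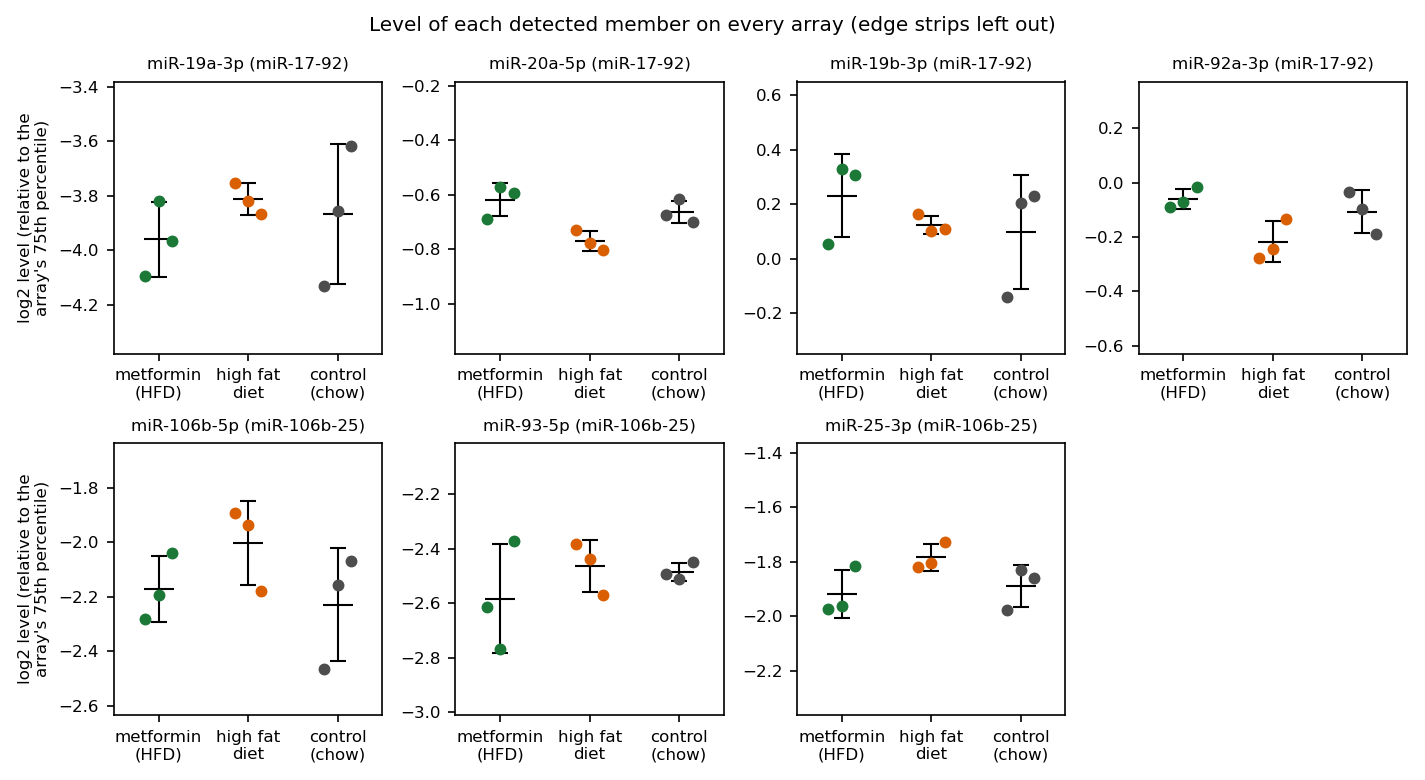
Log2 level of each of the 7 detected members (vertical axis, relative to the array's 75th percentile; every panel spans 1 log2 unit) on the 3 metformin (green), 3 high fat diet (orange) and 3 control (grey) arrays; bars are the mean ± SD, n = 3 each. For miR-20a-5p the high fat diet arrays lie below all arrays of both other groups, and for most other members the groups overlap.

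The comparison of metformin with high fat diet livers asks how the drug relates to the same miRNAs on the same diet. Again 0 of 7 members passed the threshold, against 1.4% of all 143 miRNAs (limma), and 0 reached an unadjusted p under 0.05, against 9.09%. The members' median was -0.12 and the median of all miRNAs was -0.06. The 95% intervals of the 7 members spanned -0.45 to 0.37, from 1.36-fold lower to 1.29-fold higher in metformin livers. This comparison shares the high fat diet arrays with the one before it, so opposite signs in the 2 are not independent.

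miR-20a-5p and miR-92a-3p had the smallest p-values of the members. miR-20a-5p had levels of -0.69, -0.57 and -0.59 on the metformin arrays, all above the high fat diet arrays given above (-0.73, -0.78 and -0.80). The difference was 0.15 (SE 0.08), with an unadjusted p of 0.085 and an adjusted p of 0.436 in limma. miR-92a-3p had levels of -0.09, -0.07 and -0.02 on the metformin arrays, against -0.28, -0.24 and -0.13 on the high fat diet arrays, again without overlap. Its difference was 0.16 (SE 0.08; adjusted p = 0.439, limma). Groups did not overlap for these 2 of the 7 members, against 20.3% of all miRNAs tested and 8.39% that lay higher in metformin livers.

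The remaining miR-17-92 members overlapped between the groups. miR-19b-3p lay at 0.06, 0.33 and 0.31 on the metformin arrays, with replicate 1 below and the others above all high fat diet arrays, a difference of 0.11 (SE 0.12). miR-19a-3p lay at -4.09, -3.82 and -3.97 on the metformin arrays, a difference of -0.15 (SE 0.13) from the high fat diet arrays.

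All 3 miR-106b-25 members had negative differences in this comparison, none past the threshold. miR-106b-5p had levels of -2.28, -2.19 and -2.04 on the metformin arrays, against -1.89, -1.94 and -2.18 on the high fat diet arrays, a difference of -0.17 (SE 0.13; adjusted p = 0.632, limma). miR-25-3p had levels of -1.97, -1.96 and -1.82 on the metformin arrays, against -1.82, -1.80 and -1.73 on the high fat diet arrays, a difference of -0.13 (SE 0.09; adjusted p = 0.593, limma). In both miRNAs metformin replicate 3 stood closest to the high fat diet arrays. miR-93-5p lay at -2.61, -2.77 and -2.37 on the metformin arrays, a difference of -0.12 (SE 0.11), and its replicate 3 was above every high fat diet array.

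The comparison of metformin with control livers sets both the diet and the drug against chow. It too called 0 of 7 members, against 1.4% of all miRNAs, and 0 reached an unadjusted p under 0.05, against 21%. No member's groups were free of overlap, against 25.9% of all miRNAs tested. The differences ran from -0.10 for miR-93-5p (SE 0.11) to 0.13 for miR-19b-3p (SE 0.12), with a median of 0.05 beside -0.0037 for all miRNAs. The 95% intervals spanned -0.38 to 0.40, from 1.30-fold lower to 1.32-fold higher in metformin livers. The smallest adjusted p among the members was 0.533 in limma.

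**Figure D3:**
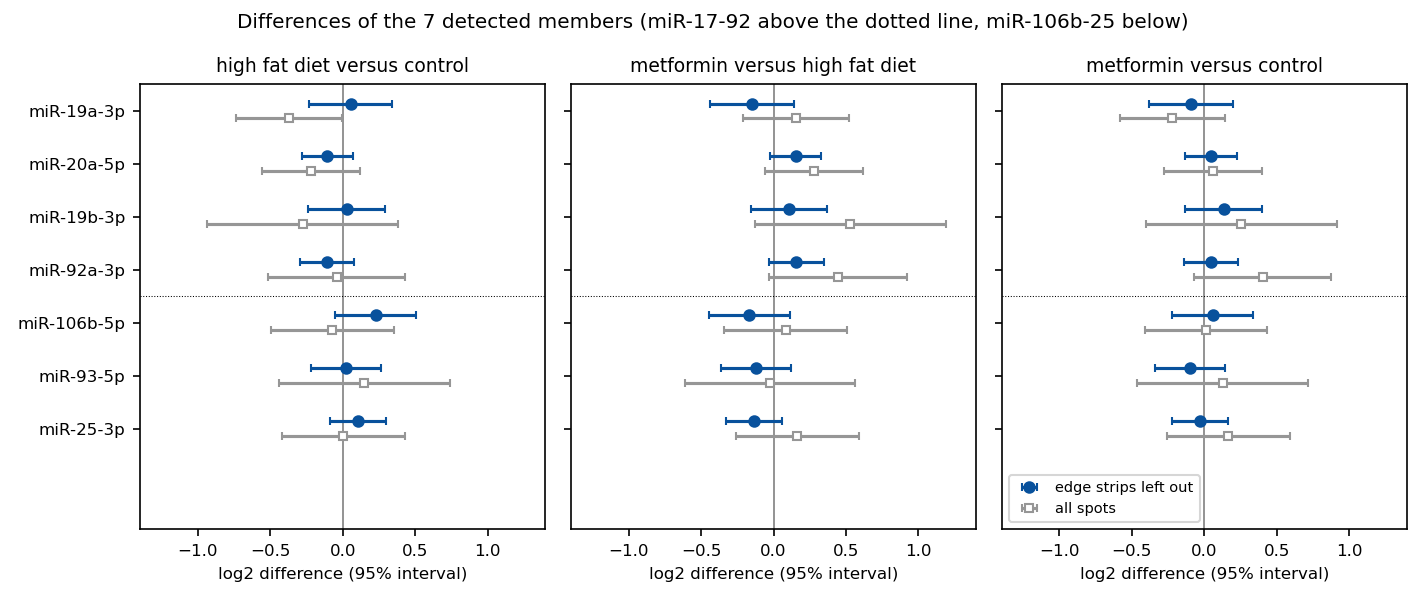
Log2 difference with its 95% interval (horizontal axis) for each of the 7 detected members in each comparison (panels), with the edge strips left out (filled circles) and with all spots (open squares). With the strips left out every interval includes 0 and the largest difference is 0.23; the all-spots intervals are wider, and miR-19a-3p has -0.37 there for high fat diet versus control.

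The treatment of the strips moved the values of several members. With all spots kept, the difference of miR-19a-3p between high fat diet and control livers was -0.37 (SE 0.17; unadjusted p = 0.0458 and adjusted p = 0.206, limma), against 0.06 without the strips. miR-19b-3p had a metformin minus high fat diet difference of 0.53 (SE 0.30; adjusted p = 0.479, limma) with all spots and 0.11 without the strips. Under neither reading was a member called.

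A comparison by cluster and by seed followed from the sequences above. In high fat diet versus control, 3 of 3 miR-106b-25 members had positive differences, with a median of 0.10, but 1 of 3 did under quantile normalization, 1 of 3 under normexp background correction and 2 of 3 with all spots. There miR-17-92 had 2 positive and 2 negative, with a median of -0.04, and 0 to 4 positive over the settings tried. In metformin versus high fat diet, 3 of 3 miR-106b-25 members had negative differences (median -0.13), but 2 of 3 did under quantile normalization, 1 of 3 with all spots and 0 of 3 with a percentile over all probes. There 3 of 4 miR-17-92 members had positive differences (median 0.13), and 2 to 4 over the settings tried. Over all 143 miRNAs, 54.5% of differences were positive for high fat diet versus control and 37.1% for metformin versus high fat diet. In metformin versus control, 1 of 3 miR-106b-25 members (0 to 3 over the settings) and 3 of 4 miR-17-92 members (2 to 4) were positive, against 49.7% of all miRNAs.

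Members with a shared seed seldom shared a sign. The GUGCAAA pair had 2 positive differences for high fat diet versus control and 1 of each sign in the other 2 comparisons. The AUUGCAC pair gave 1 positive and 1 negative difference in each of the 3 comparisons. Of the 3 AAAGUGC members tested, 2 were positive and 1 negative for high fat diet versus control, and 1 was positive and 2 were negative for metformin versus high fat diet. In both of these comparisons the miR-17-92 members of a shared seed, miR-20a-5p and miR-92a-3p, had the opposite sign to the miR-106b-25 members, which did not hold under every setting named above. It did not hold for AAAGUGC in metformin versus control, where 2 were positive and 1 negative. There miR-20a-5p (0.05) and miR-106b-5p (0.06) shared a sign and miR-93-5p (-0.10) had the other.

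Each member's level was also expressed as its deviation from its own mean over the 9 arrays and averaged by cluster. The mean deviation of miR-106b-25 minus that of miR-17-92 was -0.05, -0.24 and 0.03 in metformin livers, 0.15, 0.16 and 0.05 in high fat diet livers and -0.03, -0.04 and -0.02 in control livers. The high fat diet arrays were the highest, with replicate 3 near metformin replicate 3, and the metformin arrays were the most spread. In means this was -0.09 ± 0.14 in metformin, 0.12 ± 0.06 in high fat diet and -0.03 ± 0.01 in control livers (SD, n = 3 each). It is a description of members chosen with earlier results known, and no test was made of it. The contrast was computed with the main processing alone, and the signs behind it varied over the settings, as given above. All high fat diet arrays also lay in row 1 of their slide, where no control array lay.

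**Figure D4:**
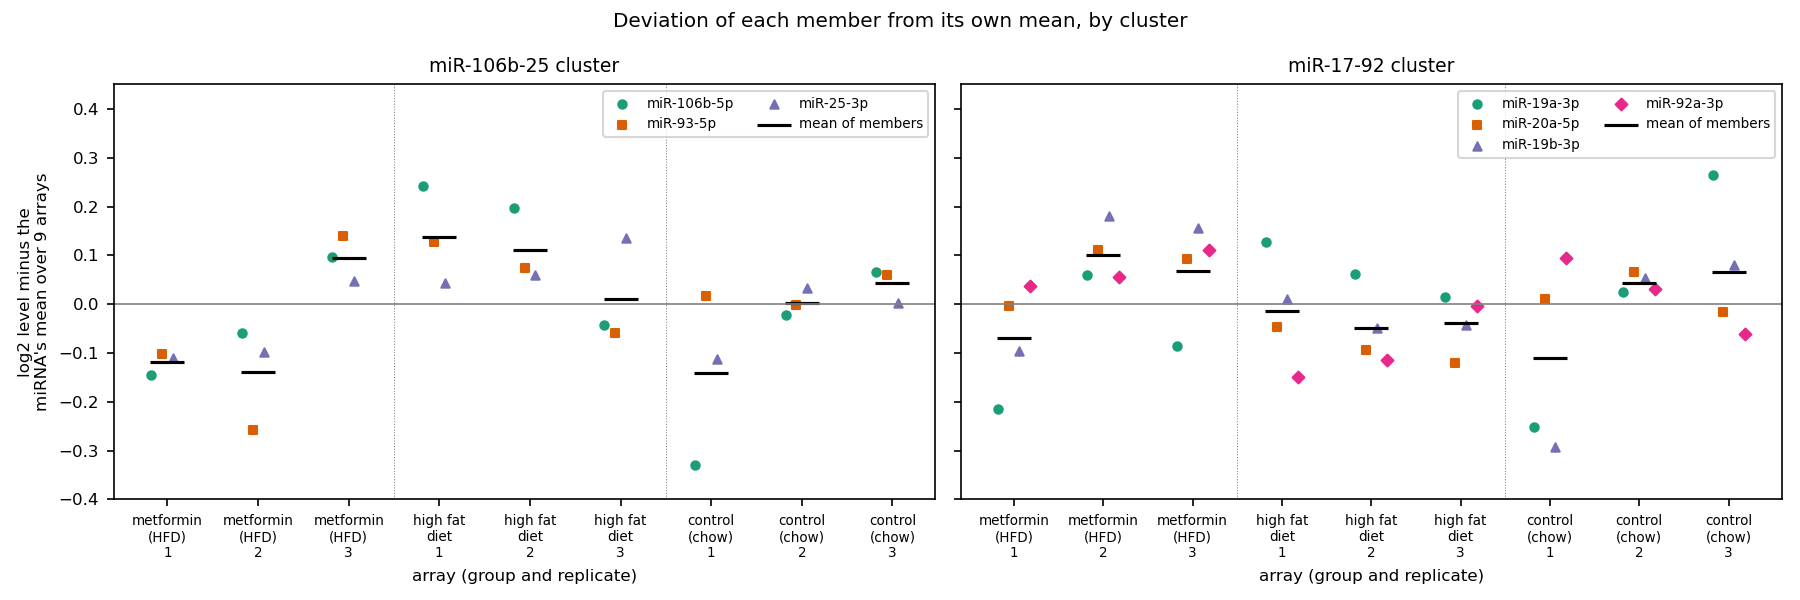
Deviation of each member's log2 level from its own mean over the 9 arrays (vertical axis), for miR-106b-25 (left panel) and miR-17-92 (right panel) on every array; black bars are the mean of the cluster's members. The miR-106b-25 bars are at or above 0 on all high fat diet arrays, the miR-17-92 bars are below 0 there, and control replicate 1 is low in both panels.

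The second probe of 4 members served as an internal check, although that of miR-106b-5p was not detected on control replicate 1 (level -4.11). For miR-106b-5p it gave 0.24 (SE 0.15) for high fat diet versus control and -0.19 (SE 0.15) for metformin versus high fat diet, where the main probe gave 0.23 and -0.17. For miR-20a-5p it gave 0.04 (SE 0.09) for high fat diet versus control, of opposite sign to the main probe's -0.11, and 0.09 (SE 0.09) for metformin versus high fat diet. For miR-92a-3p the corresponding values were -0.08 and 0.03 (SE 0.09 each), and for miR-19b-3p they were -0.0040 and 0.11 (SE 0.18 each). The lack of overlap seen for miR-20a-5p with the main probe in high fat diet versus control was thus not seen in its second probe. That probe ranged from -2.11 to -2.00 on high fat diet arrays and from -2.19 to -2.02 on control arrays. Nor was the lack of overlap of miR-20a-5p and miR-92a-3p in metformin versus high fat diet seen in their second probes. For both, metformin replicate 1 lay below high fat diet replicate 2 on that probe.

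The detected X-linked relative gave values in the direction of miR-20a-5p in both comparisons that involve high fat diet livers. miR-20b-5p lay at -2.51, -2.56 and -2.43 in metformin livers, -2.47, -2.62 and -2.77 in high fat diet livers and -2.47, -2.46 and -2.39 in control livers. High fat diet replicates 2 and 3 were the lowest of the 9. The difference was -0.18 (SE 0.10; adjusted p = 0.203, limma) for high fat diet versus control and 0.12 (adjusted p = 0.661, limma) for metformin versus high fat diet. Whether the probes of miR-20a-5p and miR-20b-5p are independent of each other's target was not tested.

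The spread of each member over the 9 arrays was read as its range, highest minus lowest array. The median range of the 7 tested members was 0.40 on the log2 scale, and that of all 143 miRNAs was 0.56. Single members ran from 0.23 for miR-20a-5p to 0.57 for miR-106b-5p. Likeness of 2 profiles was measured as the root mean square difference of their centred log2 levels over the 9 arrays, which share RNA pools and scaling. The miRNA most like miR-20a-5p was its cluster mate miR-92a-3p, and the reverse, at 0.0666, where the median over all miRNAs was 0.196 for miR-20a-5p and 0.205 for miR-92a-3p. No other member had a member among its 3 nearest miRNAs, so 2 of the 21 names in these lists were members.

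For the other members the nearest profiles were those of miRNAs from other families. For miR-106b-5p they were miR-29c-3p (0.0552), miR-194-5p (0.0639) and miR-101a-3p (0.0717). For miR-25-3p they were let-7i-5p (0.0552), miR-126a-3p (0.0586) and miR-23a-3p (0.0628), and for miR-93-5p they were miR-16-5p (0.0554), let-7f-5p (0.0682) and let-7g-5p (0.0818). miR-19b-3p was closest to miR-192-5p (0.0785), and miR-19a-3p to miR-500-3p (0.106). Pairs of members from 1 cluster with different seeds had a median distance of 0.129 (7 pairs), and pairs that shared cluster and seed had 0.138 (2 pairs). Pairs that shared neither had 0.143 (9 pairs), and pairs with a shared seed from different clusters had 0.156 (3 pairs). Single pairs ran from 0.0666 to 0.235.

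Markers of the cell types in liver were read beside these values. All 4 hepatocyte miRNAs in the list, miR-122-5p, miR-192-5p, miR-194-5p and miR-148a-3p, were detected on all 9 arrays. Their summed level was 107 to 120 times the scaling percentile on metformin arrays, 98.0 to 110 times on high fat diet arrays and 104 to 117 times on control arrays. miR-122-5p made up most of that sum, and its difference for high fat diet versus control was -0.10 (adjusted p = 0.422, limma). The other 3 had positive differences there, up to 0.37 for miR-148a-3p (adjusted p = 0.0624, limma), whose groups did not overlap. For metformin versus high fat diet 2 of 4 were positive, and for metformin versus control 4 of 4. In bulk tissue, fewer cells of a type and less of an RNA per cell cannot be told apart.

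Markers of other cell types were read in the same way. For high fat diet versus control, 2 of 3 tested leukocyte and 1 of 1 erythroid miRNAs had positive differences. So did 2 of 2 stellate and 1 of 1 endothelial miRNAs, against 3 of 4 hepatocyte miRNAs and 54.5% of all 143 tested. For metformin versus high fat diet 0 of 3, 0 of 1, 0 of 2 and 0 of 1 in the same order were positive. The share there was 2 of 4 for hepatocyte miRNAs and 37.1% for all miRNAs. miR-199a-3p of stellate cells rose in high fat diet livers by 0.31 (adjusted p = 0.0301, limma). It was the only one of these past the threshold, which 14% of all miRNAs passed. Summed over each list, with values under the floor set to it and in units of the scaling percentile, the stellate level was 0.396 to 0.410 on metformin arrays, 0.420 to 0.441 on high fat diet arrays and 0.367 to 0.380 on control arrays, and the leukocyte sum was 0.426 to 0.454, 0.454 to 0.521 and 0.430 to 0.514 in the same groups. The endothelial sum was 2.73 to 3.32 on metformin arrays, 3.17 to 3.23 on high fat diet arrays and 2.66 to 2.97 on control arrays. The erythroid sum was 0.341 to 0.384 on metformin arrays, 0.586 to 0.776 on high fat diet arrays and 0.419 to 0.996 on control arrays. The lymphocyte marker miR-150-5p and the activation marker miR-155-5p were detected on 0 arrays, as were miR-142a-5p, miR-144-3p, miR-143-3p, miR-145a-5p and miR-126a-5p. miR-486a-5p of the erythroid list was detected on high fat diet replicate 3 alone (80% of the spots of its better probe) and was not tested. miR-214-3p passed on high fat diet replicate 3 alone (81.8% of spots), with a probe other than the one used for it. The part of these cell types in the members' values was not tested.

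The place of an array on the slide was tied to the groups. Of the 9 arrays 8 shared a slide and control replicate 3 was alone on another. Row 1 of the shared slide held the 3 high fat diet arrays and metformin replicate 1, and row 2 held metformin replicates 2 and 3 and control replicates 1 and 2. No row held both high fat diet and control arrays, so that comparison has no value within a row. Within row 1, metformin replicate 1 differed from the high fat diet arrays by -0.28 for miR-106b-5p, -0.15 for miR-93-5p and -0.19 for miR-25-3p, the same sign as in the whole set. There miR-20a-5p and miR-92a-3p kept positive values, 0.08 and 0.13, while miR-19a-3p had -0.28 and miR-19b-3p had -0.07. Within row 2, metformin minus control was 0.10 for miR-19a-3p, 0.06 for miR-20a-5p, 0.29 for miR-19b-3p, 0.02 for miR-92a-3p, 0.19 for miR-106b-5p, -0.07 for miR-93-5p and 0.01 for miR-25-3p. With row as a block on the shared slide, limma called 0 of the 7 members in each comparison. That fit links high fat diet to control arrays only through the metformin arrays, and in row 1 through metformin replicate 1 alone. Reached in this indirect way, the high fat diet minus control difference was 0.47 (SE 0.23; adjusted p = 0.263) for miR-106b-5p and 0.38 (SE 0.20; adjusted p = 0.290) for miR-19a-3p.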

How the data were processed

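Intensity values per spot came from Agilent Feature Extraction, version 11.5.1.1 per the file headers and 10.7 per the submitters' processing notes, with background subtracted and no scaling across arrays. The deposited log2 values equalled the total gene signal of that software shifted by a constant on each array (-2.35 to -0.71; up to 6 miRNAs departed by over 0.001), with column medians between -5.67 and -4.03; the choice of constants is unknown. They served as an alternative.

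From each array edge, columns were left out in steps of 4 while at least 10% of bright spots (80th percentile of the probe over 100) fell under 50% of that level. A probe's value was the median over the spots left, those marked non-uniform aside; 425 probes with fewer than 3 were dropped. Values were divided by the 75th percentile, floored at 0.0406 of it, put on the log2 scale, and each miRNA was read from its brightest probe. limma 3.58.1 (R 4.3.3, version 1.17.8 of the data.table package) fitted 3 group means over all 9 arrays without a block, two-sided, with Benjamini-Hochberg adjustment over the 143 miRNAs tested at 0.05. The code was tested on simulated data with planted changes larger than the members' differences, so recovery of differences of their size was not examined. The number of arrays limits the precision, with a median SE of 0.12. With 3 against 3 arrays the smallest p an exact permutation test allows is 0.1, so none was used. Profiles named as most alike are the 3 nearest of the tested miRNAs. The members, the lists and the omission of the strips were chosen with earlier results of these data known. Sequences and coordinates are RefSeq's on GRCm38.p6; the files hold no coordinates and their headers name an older build. The normexp alternative used the median spot signal; the mean spot signal was not used here.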

Additional observations from a re-analysis of the deposited data

How the results depend on the processing

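With 3 pools a group and signal missing from edge strips on 6 of 9 arrays, the median SE of a log2 difference was 0.12, about the size of the members' differences. Of 160 member differences under alternatives in each comparison, 144 (high fat diet versus control), 149 (metformin versus high fat diet) and 135 (metformin versus control) kept their sign and stayed uncalled. Some alternatives can change the call but not the difference, so these counts overstate how stable the signs were. They are the other detection filters, the replicate block and leaving out an array of the group not compared. The slide block gives the same differences as leaving out control replicate 3. No setting called a member except quantile normalization (1, miR-20a-5p) and the percentile over all probes (7). The causes were not tested.

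In high fat diet versus control, where 20 of 143 miRNAs were called, other readings moved values as follows. With all spots 9 were called, the members' median was -0.074, and the signs turned for miR-19a-3p (-0.37), miR-19b-3p (-0.28) and miR-106b-5p (-0.074). With the deposited values 0 were called, with miR-19a-3p at -0.30, miR-19b-3p at -0.29 and miR-92a-3p at 0.017. Under normexp the median was -0.087, with miR-19a-3p at -0.24, miR-93-5p at -0.13 and miR-25-3p at -0.026. Quantile normalization called miR-20a-5p (-0.32; adjusted p = 0.0229, limma) as the 1 member, with miR-93-5p at -0.0067 and miR-25-3p at -0.018. Array weights called 31 miRNAs and gave -0.054 for miR-19b-3p; without a filter 0 were called. Scaling by the percentile over all probes, which put the median of all miRNAs at 0.56, called 1, with a members' median of 0.57, miR-20a-5p at 0.43 and miR-92a-3p at 0.43. The slide block called 39 (members' median 0.094), and the row block called 0 (0.20).

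In metformin versus high fat diet, where 2 were called, 0 were called with all spots, the deposited values, the 20% strip limit, normexp, quantile normalization, the percentile over all probes, no filter, the mean of all probes or the row block. The slide block called 1 and array weights 7. The members' median was 0.16 with all spots, 0.074 under normexp, 0.036 under quantile normalization, 0.15 with the percentile over all probes, 0 without a filter and -0.0075 for miRNAs detected on all 9 arrays. Signs turned with all spots for miR-19a-3p (0.15), miR-106b-5p (0.085) and miR-25-3p (0.16). They also turned for miR-20a-5p with the deposited values (-0.0047), miR-19a-3p under normexp (0.074), miR-25-3p under quantile normalization (0.036) and miR-19b-3p under the row block (-0.069). With the percentile over all probes miR-19a-3p had 0.12, miR-106b-5p 0.10, miR-93-5p 0.15 and miR-25-3p 0.14.

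In metformin versus control, where 2 were called, 0 were called with all spots, the deposited values, normexp or no filter, 7 with the slide block, 5 with the row block and 4 with array weights. The members' median was 0.13 with all spots, -0.051 under normexp and -0.036 with array weights. Signs turned with all spots for miR-93-5p (0.13) and miR-25-3p (0.17), and with the deposited values for miR-20a-5p (-0.075), miR-106b-5p (-0.20) and miR-25-3p (0.0028). miR-106b-5p had -0.051 under normexp and -0.036 with array weights. Quantile normalization gave 0.0032 for miR-19a-3p, -0.020 for miR-20a-5p and 0.018 for miR-25-3p, and the mean of all probes gave -0.0022 for miR-92a-3p. miR-19a-3p had 0.033 under the slide block and 0.10 under the row block, where miR-25-3p had 0.014. Scaling by the percentile over all probes put the median of all miRNAs at 0.80 and called 98 of them, 7 members included, with a members' median of 0.86. It put miR-19a-3p at 0.72, miR-93-5p at 0.71 and miR-25-3p at 0.78.

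With each array left out in turn, 0 members were called in every comparison. All calls ranged from 6 to 40 in high fat diet versus control (8 without control replicate 1, 40 without control replicate 3, 6 and 7 without high fat diet replicates 1 and 2, 13 without metformin replicate 2), from 0 to 3 in metformin versus high fat diet and from 1 to 8 in metformin versus control. The members' median ranged from 0.023 to 0.094, from -0.15 to -0.029 and from -0.0076 to 0.070 in these comparisons. The sign turned for miR-92a-3p in high fat diet versus control (-0.15 to 0.023; without control replicate 1). In metformin versus control it turned for miR-25-3p (-0.079 to 0.016; without control replicate 1 or 2), miR-19a-3p (-0.16 to 0.033; without control replicate 3) and miR-106b-5p (-0.0076 to 0.14; without metformin replicate 3).

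The labels give each group the same replicate numbers and state no pairing. Correlations between the deviations of same-numbered arrays were -0.0038, 0.37 and -0.22 for high fat diet with control. They were -0.022, 0.0054 and -0.18 for metformin with high fat diet, and 0.36, -0.24 and 0.43 for metformin with control. Arrays with different numbers were not compared in this way, so these values cannot decide whether same-numbered arrays were paired. The replicate block called 0 members in each comparison and 0 miRNAs in metformin versus high fat diet.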
